A study of Mus musculus with 4 samples.

Results

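The 7 genes described here carry the glucocorticoid stress response in mouse hippocampus: the receptors Nr3c2 and Nr3c1, the receptor co-chaperone Fkbp5, the hormone-activating enzyme gene Hsd11b1, the hormone-induced genes Sgk1 and Tsc22d3, and the neuropeptide receptor gene Crhr1. They were taken by name, through GENCODE M21, from the 52636 Ensembl genes of the deposited tables, and all 7 were found. The study, whose title gives its purpose as finding the mRNAs bound by YTHDF2, a protein that binds m6A-modified mRNA, used hippocampus of C57BL/6 wild-type mice at postnatal day 40. Its 4 samples are 2 inputs, which are lysate RNA without immunoprecipitation, and 2 recoveries with an antibody to YTHDF2. The values below are those of the 2 input libraries, and the antibody recoveries were not analysed here. No group received a stressor, a hormone or another treatment, per the labels. With 1 group there is no comparison between groups and no p-value, and since the labels name neither separate animals nor pools for the inputs, the spread between them may be technical.

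Corticosterone, the main glucocorticoid of mice, is released by the adrenal gland under the command of hypothalamic CRH and pituitary ACTH. In the hippocampus it binds the mineralocorticoid receptor (MR, gene Nr3c2), which has the higher affinity, and the glucocorticoid receptor (GR, gene Nr3c1), which is filled mainly at the daily peak and under stress. The unbound receptors sit in the cytosol on an HSP90 complex, move to the nucleus with the hormone and bind glucocorticoid response elements. Fkbp5, Sgk1 and Tsc22d3 are classic induced genes, and FKBP5 in turn lowers the affinity of the receptor for its hormone.

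The libraries held 2563069 and 3334451 counts and are called the shallower and the deeper. CPM are counts scaled to a library total of 1e6, and FPKM further divides by 1 length per gene, close to the mean of its annotated transcripts. A gene with 0 counts may still have a level of up to 3 counts, which is 1.17 CPM for the shallower and 0.900 for the deeper library. Intervals are exact at 95% (Poisson for levels, binomial for ratios) and cover counting error only. A ratio between libraries is log2 of the deeper over the shallower value of CPM + 0.5, after TMM scaling, and had a median of 0.04 over genes at 20 CPM or more. The tissue label was checked against markers. Of 12 principal neuron markers 11 reached 5 CPM, with a sum of 1994 and 2274 CPM, including Prox1 of dentate granule cells (219 ± 11.2 CPM, SD, n = 2) and Fibcd1 of CA1 (175 ± 21.05), while Spink8 of CA1 had 7 and 0 counts. Astrocyte (1474 and 1383 CPM) and oligodendrocyte markers (4004 and 3960 CPM) were present. Sums of markers of microglia (189 and 181 CPM), endothelium and pericytes (48.0 and 59.4), choroid plexus (37.8 and 27.0) and blood (58.9 and 51.6) were low. In bulk tissue, fewer cells of a type and less RNA per cell cannot be told apart.

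Nr3c2 was the most abundant of the 7 by CPM, and with Sgk1 the highest by deposited FPKM. Nr3c2 (ENSMUSG00000031618, chromosome 8, 76899442 to 77245012, plus strand, GRCm38) had 684 (shallower) and 920 (deeper) counts, which was 267 CPM (interval 247 to 288) and 276 CPM (258 to 294). Gm10649, a noncoding gene on the opposite strand, had 17 and 8. Its mean was 271 ± 6.39 CPM and 95.4 ± 2.25 FPKM (SD, n = 2), above 94.9% of the 13107 nuclear protein-coding genes counted in both libraries. The 2 libraries gave nearly the same level, and the intervals overlap.

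Nr3c1 was lower than Nr3c2 in both libraries. Nr3c1 (ENSMUSG00000024431, chromosome 18, 39410545 to 39519421, minus strand) had 231 and 392 counts, or 90.1 (78.9 to 103) and 118 CPM (106 to 130). Its mean of 35.4 ± 6.61 FPKM (SD, n = 2) lay above 82.6% of those coding genes. The deeper library was the higher one for Nr3c1, and the intervals do not overlap.

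Within each library, where depth cancels, MR mRNA exceeded GR mRNA by 3.05-fold in the shallower (log2 1.61, interval 1.39 to 1.83) and by 2.42-fold in the deeper library (log2 1.27, 1.10 to 1.45). The mean log2 ratio was 1.44 ± 0.24 (SD, n = 2). Both genes have many short annotated transcripts (the shortest are 300 bases for Nr3c1 and 270 for Nr3c2, the longest 6436 and 5916), so the divisors of 2933 and 2845 bases lie far below full length. The direction did not rest on them: the mean log2 ratio was 1.52 over the longest transcripts, 1.65 over the union of exons and 1.40 with no length at all.

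**Figure D1:**
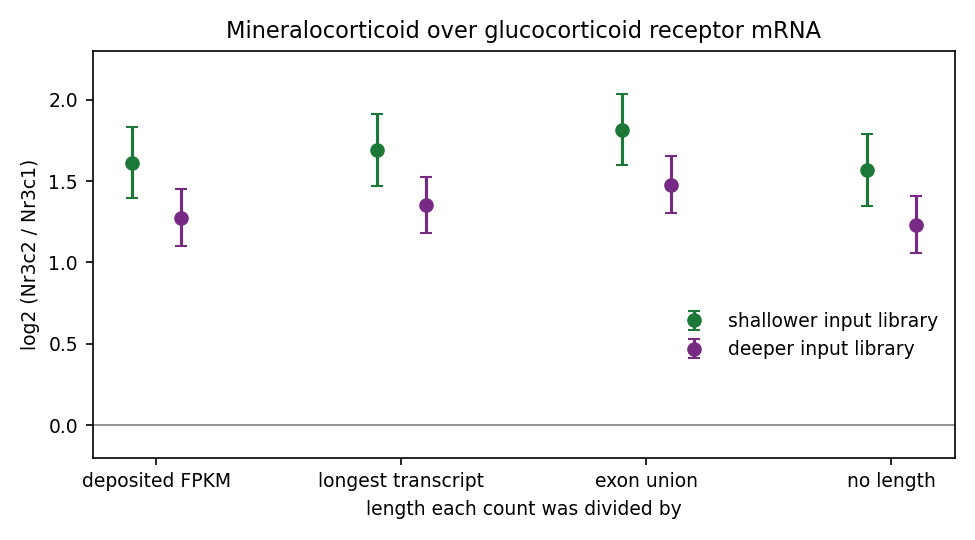
Log2 ratio of Nr3c2 over Nr3c1 in each input library, with counts divided by 4 choices of length (bars are exact 95% binomial intervals). All 8 points lie above 0, from 1.23 to 1.81, and the shallower library is the higher one at each choice.

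Other steroid hormone receptor genes, which share the family fold, were lower. Of the 5 family genes reported here, 3 reached 5 CPM, where 47.8% of nuclear protein-coding genes did. These were Nr3c2, Nr3c1 and the progesterone receptor gene Pgr, with 42 and 90 counts (5.13 ± 1.77 FPKM, SD, n = 2). The estrogen receptor genes were lower still, with 3 and 19 counts for Esr1 and 0 and 2 for Esr2.

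Hsd11b1 encodes the enzyme of the endoplasmic reticulum that regenerates corticosterone from its inert keto form inside cells. It was detected at a modest level. Hsd11b1 (ENSMUSG00000016194, chromosome 1, 193221634 to 193264075, minus strand) had 32 and 50 counts, or 12.5 CPM (8.54 to 17.6) and 15.0 CPM (11.1 to 19.8), a mean of 11.8 ± 1.52 FPKM (SD, n = 2). The libraries overlapped. The level lay above 55.1% of coding genes counted in both libraries, close to their median of 9.95 FPKM. Lamb3, which overlaps it on the opposite strand, had 4 counts in each library, and whether the counting used strand is not given in the sources.

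The opposing enzyme gene was at the limit of detection. Hsd11b2, whose product inactivates corticosterone and protects MR in aldosterone target tissues such as kidney, had 2 and 0 counts, of which the 0 allows up to 0.900 CPM. H6pd, which supplies NADPH to the Hsd11b1 enzyme, had 54 and 34 counts (6.04 ± 2.97 FPKM). Of the 17 genes of glucocorticoid metabolism and transport, 7 reached 5 CPM, where 47.8% of nuclear protein-coding genes did. Besides Hsd11b1 and H6pd, these were the 5-alpha-reductase gene Srd5a1 (10.5 ± 1.09 FPKM), the oxysterol hydroxylase gene Cyp7b1 (7.38 ± 0.258), the cholesterol transfer gene Star (4.98 ± 2.87) and the export pump genes Abcc1 (11.2 ± 5.43) and Abcb1a (3.03 ± 0.216). Cyp11b1, Cyp11b2 and Cyp21a1, enzymes of the adrenal cortex, the steroid reductase genes Srd5a2 and Akr1c14, and Serpina6, the plasma carrier of corticosterone, had 0 counts in both libraries.

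Fkbp5, the co-chaperone that holds the receptor in its low-affinity state, was of intermediate level. Fkbp5 (ENSMUSG00000024222, chromosome 17, 28399094 to 28517527, minus strand) had 165 and 188 counts, or 64.4 CPM (54.9 to 75) and 56.4 CPM (48.6 to 65.04), a mean of 24.0 ± 2.25 FPKM (SD, n = 2). The libraries overlapped. Fkbp4, whose product competes with FKBP5 for the HSP90 complex and favours transport of the receptor to the nucleus, had 170 and 164 counts (35.9 ± 7.54 FPKM). Per length Fkbp4 exceeded Fkbp5 by 1.61-fold in the shallower (log2 0.69, 0.37 to 1.01) and 1.37-fold in the deeper library (0.45, 0.14 to 0.76). This order rests on division by a length. By counts alone the log2 ratios were 0.04 (-0.27 to 0.36) and -0.20 (-0.51 to 0.11). Over the longest transcripts they were 0.57 (0.25 to 0.89) and 0.33 (0.02 to 0.64), and over the union of exons 1.80 (1.49 to 2.12) and 1.56 (1.25 to 1.87).

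The chaperone machinery of the receptors was present as a whole. All 18 genes of the list, Fkbp5 included, reached 5 CPM, where 47.8% of nuclear protein-coding genes did, with a sum of 2117 and 1963 CPM. Hsp90ab1, the constitutive HSP90, was the highest at 1218 ± 47.6 FPKM (SD, n = 2). It was followed by the HSP70 gene Hspa8 (127 ± 16), the related gene Hspa4 (60.0 ± 0.489) and the phosphatase gene Ppp5c (44.1 ± 0.866). Next came the HSP90 activator gene Ahsa1 (39.7 ± 17.6) and Ptges3, which encodes the p23 co-chaperone (37.2 ± 4.70). For Hspa8 70.0% of transcript 31-mers also occur in other genes, for Ptges3 25.2% and for Hsp90ab1 15.0%. How reads from shared sequence were counted is not given in the sources, so the size of any effect on these counts is unknown. The 7 genes themselves shared between 0% and 2.01% of their 31-mers with other genes. Among 15 FKBP genes 12 reached 5 CPM. By mean FPKM Fkbp5 ranked behind Fkbp1a (372 ± 36.9 FPKM), Fkbp8 (91.4 ± 29.2) and Fkbp4, and ahead of Fkbp3 (20.5 ± 9.56) and Fkbp1b (15.5 ± 3.81). The order of Fkbp5 and Fkbp3 turned in the shallower library, at 25.6 and 27.3 FPKM. Fkbp6 and Fkbp11 had 0 counts in both libraries.

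Sgk1 encodes a kinase that is switched on at the transcript level by glucocorticoids and aldosterone, and its gene has several annotated starts. Sgk1 (ENSMUSG00000019970, chromosome 10, 21882184 to 21999903, plus strand) has 13 annotated transcripts of 270 to 3096 bases, which gene counts cannot separate. A script searched RefSeq promoter windows (250 bases before to 50 after each start, GRCm38.p6) for the response element made of GNACA, any 3 bases and TGTNC, which reads the same on both strands. It occurred in 0.475% of 32851 windows. Windows were listed for 6 of the genes, all but Nr3c1, and in 1 of their 13, at a start of Sgk1, the element was found. A half-site, TGTTCT or AGAACA on the other strand, occurred in 4 of the 13, against 19.0% of all windows. It was counted also inside the full element. It fixes the free base of an arm and adds a flanking base, so a full element need not hold it. The 250 bases before that start are shown first, with the element in capitals, which begins at position -188 from the start. It is labelled upstream only relative to the sequence shown second. Other Sgk1 windows lie further upstream, the first beginning at 21881934. The second sequence precedes the most downstream start listed for Sgk1, for comparison, with the letters TATAAA (searched on the forward strand, in 8.32% of windows) in capitals at -11. Its window held 28 CpG dinucleotides, and that of the first 10. A further Sgk1 window, beginning at 21991973 and not shown, also held TATAAA, at -28. The third, from Fkbp5, is shown as an induced gene whose window held neither the element nor a half-site. It had 32 CpG dinucleotides in its 300 bases, where the median of all windows was 7. A match is a description of the sequence, and binding was not measured.
Sgk1 upstream start, chr10:21993640-21993889, plus strand: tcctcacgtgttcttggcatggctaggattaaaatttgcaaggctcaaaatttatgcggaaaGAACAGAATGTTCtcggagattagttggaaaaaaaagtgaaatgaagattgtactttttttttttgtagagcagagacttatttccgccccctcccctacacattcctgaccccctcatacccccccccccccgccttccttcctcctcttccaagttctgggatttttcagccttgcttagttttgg
Sgk1 downstream start, chr10:21994416-21994665, plus strand: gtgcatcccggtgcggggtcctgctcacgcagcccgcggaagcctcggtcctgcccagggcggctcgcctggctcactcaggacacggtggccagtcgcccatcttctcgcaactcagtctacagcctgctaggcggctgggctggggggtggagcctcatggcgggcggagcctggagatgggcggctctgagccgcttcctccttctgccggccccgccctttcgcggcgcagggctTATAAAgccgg
Fkbp5 start, chr17:28486150-28486399, minus strand: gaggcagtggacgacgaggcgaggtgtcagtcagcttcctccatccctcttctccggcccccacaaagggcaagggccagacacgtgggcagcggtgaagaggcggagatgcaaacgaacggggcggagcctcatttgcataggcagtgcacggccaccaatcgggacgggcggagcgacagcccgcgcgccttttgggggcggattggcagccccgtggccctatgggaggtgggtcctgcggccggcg

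By deposited FPKM, Sgk1 stood beside Nr3c2 at the top of the genes described. It had 340 and 339 counts, or 133 CPM (119 to 148) and 102 CPM (91.1 to 113). Its mean was 85.8 ± 16.1 FPKM (SD, n = 2). The shallower library was the higher one and the intervals do not overlap. The related kinase genes were low: Sgk3 had 13 and 27 counts and Sgk2 8 and 2. Per length Sgk1 exceeded Sgk3 by 56.7-fold in the shallower (log2 5.83, 5.03 to 6.75) and 27.2-fold in the deeper library (4.77, 4.2 to 5.39), and by 31.9-fold and 15.3-fold over the longest transcripts.

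Of 17 genes of the SGK1 pathway, Sgk1 included, 13 reached 5 CPM, where 47.8% of nuclear protein-coding genes did. The others were led per length by Nedd4 (221 ± 14.8 FPKM), a ubiquitin ligase gene, the N-myc downstream-regulated genes Ndrg2 (116 ± 3.86) and Ndrg1 (73.0 ± 9.05), Pdpk1, which encodes the activating kinase PDK1 (109 ± 8.44), and Nedd4l (77.7 ± 7.47), the ligase gene whose product SGK1 phosphorylates in kidney epithelium. Of the epithelial sodium channel subunits, the textbook end of that pathway, Scnn1a was detected below 5 CPM, with 13 and 15 counts. Scnn1b had 0 and 1 counts and Scnn1g 0 in both libraries, all within the limit of 3.

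Tsc22d3 encodes GILZ, a leucine zipper protein induced by glucocorticoids that restrains inflammatory transcription factors. Tsc22d3 (ENSMUSG00000031431, chromosome X, 140539528 to 140600659, minus strand) had 246 and 297 counts, or 96.0 CPM (84.4 to 109) and 89.1 CPM (79.2 to 99.8), a mean of 56.7 ± 3.0 FPKM (SD, n = 2). The libraries overlapped. All 4 genes of its family were detected. Tsc22d1 was the highest (225 ± 32.5 FPKM), above Tsc22d3 by 4.21-fold and 3.70-fold in the shallower and deeper libraries and by 2.16-fold and 1.89-fold over the longest transcripts. Tsc22d4 had 38.4 ± 4.56 FPKM and Tsc22d2 15.7 ± 4.85.

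Among 25 glucocorticoid-induced genes found by name, a list chosen with earlier results of these data known, 19 reached 5 CPM. Of nuclear protein-coding genes 47.8% did. Those 19 include Fkbp5, Sgk1 and Tsc22d3. The metallothionein gene Mt1 (188 ± 7.45 FPKM) and the small GTPase gene Rhob (170.3 ± 9.55) lay above Sgk1. By deposited FPKM the transcription factor genes Klf9 (53.7 ± 2.81) and Zbtb16 (43.05 ± 7.33) lay below Tsc22d3. Over the longest transcripts Klf9 (39.1) lay above Tsc22d3 (32.2), and Zbtb16 (32.1) lay close to Tsc22d3. Lcn2, which is strongly induced in inflamed brain, had 0 counts in both libraries. Of the 19, 12 were lower and 7 higher in the deeper library, with a median log2 ratio of -0.20, beside 0.00 for all 12218 genes at 5 CPM or more. Intervals lay below 0 for 9 of the 19 and above 0 for none, where they lay below 0 for 17.9% and above 0 for 18.6% of all 12218 genes. The median transcript GC content of the 19 was 52.9%, where that of expressed coding genes was 49.7%, and after removal of the trend of the ratio with GC their median was -0.08. The intervals above were taken without that removal, and the part of GC content in these ratios was not tested.

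Crhr1, the gene of the main receptor for CRH, was at the edge of detection. Crhr1 (ENSMUSG00000018634, chromosome 11, 104132855 to 104175523, plus strand) had 9 and 10 counts, or 3.51 CPM (1.61 to 6.67) and 3.0 CPM (1.44 to 5.52), a mean of 1.32 ± 0.147 FPKM (SD, n = 2). Both counts exceed the limit of 3, and the libraries overlapped. It was the 1 gene of the 7 below 5 CPM and lay above 9.74% of coding genes counted in both libraries.

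The ligands of the CRH receptors were not detected. Crh and Ucn, whose products bind CRHR1, and Ucn2 and Ucn3, whose products are selective for CRHR2, each had 0 counts in both libraries, which allows up to 1.17 and 0.900 CPM. Crhr2 had 0 and 5 counts, and Crhbp, whose product binds and neutralises CRH, had 12 and 25 (3.50 ± 1.14 FPKM). Of the hormone genes of the axis, Avp and the vasopressin receptor gene Avpr1a had 0 counts in both libraries and Pomc 5 and 6. Among the hypothalamic markers Oxt, Hcrt and Pmch were at 0 in both libraries, and Agrp had 3 and 1 counts. Of the pituitary markers Gh and Prl were at 0, and Tshb had 8 and 5. The receptor gene Adcyap1r1 for the stress neuropeptide PACAP had a higher level (86.7 ± 10.8 FPKM), as did the prohormone convertase gene Pcsk2 (62.2 ± 8.05). Adcyap1, the gene of PACAP itself, had 5 and 30 counts (2.62 ± 2.39 FPKM), with a ratio of 2.08 (0.97 to 4.07).

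Ordered by FPKM, the genes ran Nr3c2, Sgk1, Tsc22d3, Nr3c1, Fkbp5, Hsd11b1, Crhr1. Neighbours were called apart where their means differed by more than the sum of their SDs with the same order in both libraries. By this rule Nr3c2 and Sgk1 were not apart (a difference of 9.56 against 18.3 FPKM, with the order turned in the shallower library), and the other 5 neighbouring pairs were. Divided by the longest transcript in place of the deposited length, Sgk1 (37.8 ± 7.08) was no longer apart from Tsc22d3 (32.2 ± 1.70), nor Nr3c1 (16.1 ± 3.01) from Fkbp5 (15.7 ± 1.47). The sequence of the genes stayed the same under that length and under the union of exons. With the union of exons Nr3c2 (41.9 ± 0.987) was apart from Sgk1 (23.9 ± 4.47), and Sgk1 was not apart from Tsc22d3 (21.3 ± 1.13).

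**Figure D2:**
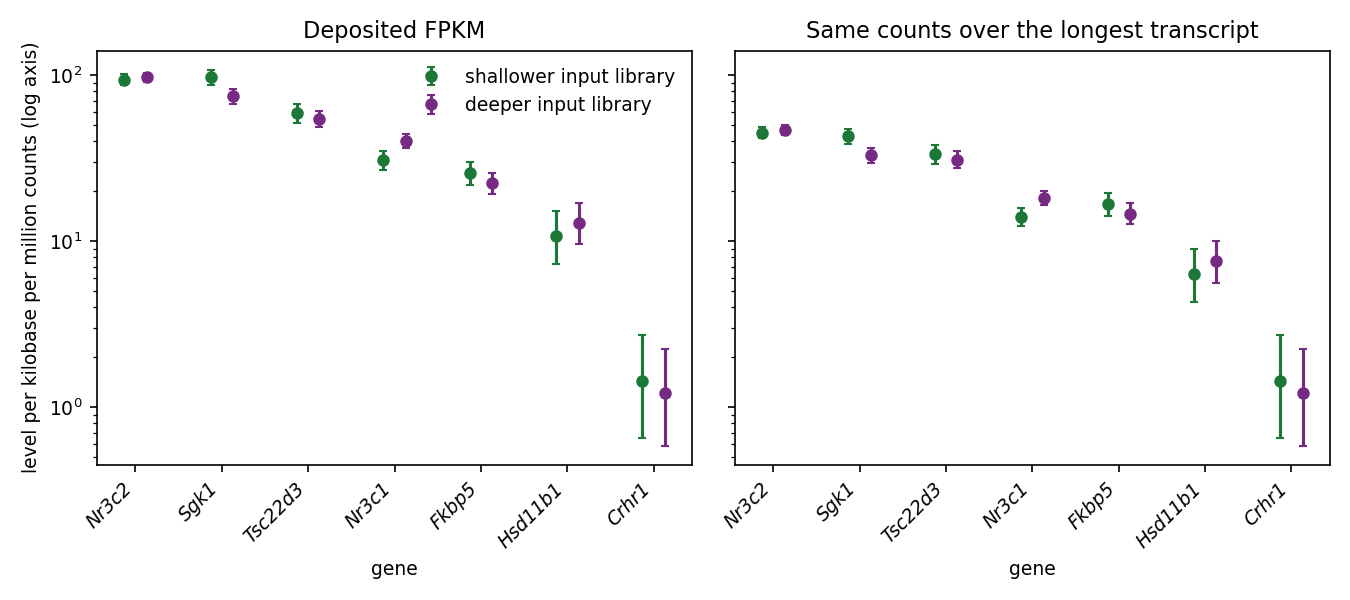
Level of each gene in the shallower (green) and deeper (purple) input library on a log axis, as deposited FPKM (left) and with the same counts over the longest transcript (right). Bars are exact 95% Poisson intervals, and levels run from 1.22 FPKM for Crhr1 in the deeper library to 97.2 for Sgk1 in the shallower.

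Between the libraries, 0 of the 5 genes whose mean reached 20 CPM were at least 2-fold apart, where 3.93% of all 6915 such genes were, a share at which 0 of 5 says nothing particular about them. The ratio was 0.53 for Nr3c1 (interval 0.29 to 0.77) and 0.19 for Nr3c2 (0.05 to 0.34). After TMM scaling both were thus higher in the deeper library by more than counting error, as were 18.6% of genes at 5 CPM or more. The CPM intervals of Nr3c2, which lack that scaling, overlapped. For Sgk1 the ratio was -0.24 (-0.46 to -0.02), lower in the deeper library, as were 17.9% of genes. The intervals of Tsc22d3 (0.04, -0.21 to 0.29), Fkbp5 (-0.05, -0.36 to 0.26), Hsd11b1 (0.39, -0.26 to 1.10) and Crhr1 (-0.07, -1.54 to 1.39) included 0.

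Nr3c1 had the widest gap of those 5, and 19.3% of all genes at 20 CPM or more were at least as far apart. Its longest transcript has a GC content of 42.2%, the lowest of the 7, and after removal of the GC trend of the ratio its value was 0.24. For Nr3c2 the value was 0.05 when library totals alone were used, where the median of all genes was -0.10. Pgr also had an interval above 0, with a ratio of 0.84 (0.32 to 1.43). The mitochondrial share of counts also differed, at 1.73% in the shallower and 3.65% in the deeper library. The part of that share and of GC content in these ratios was not tested.

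**Figure D3:**
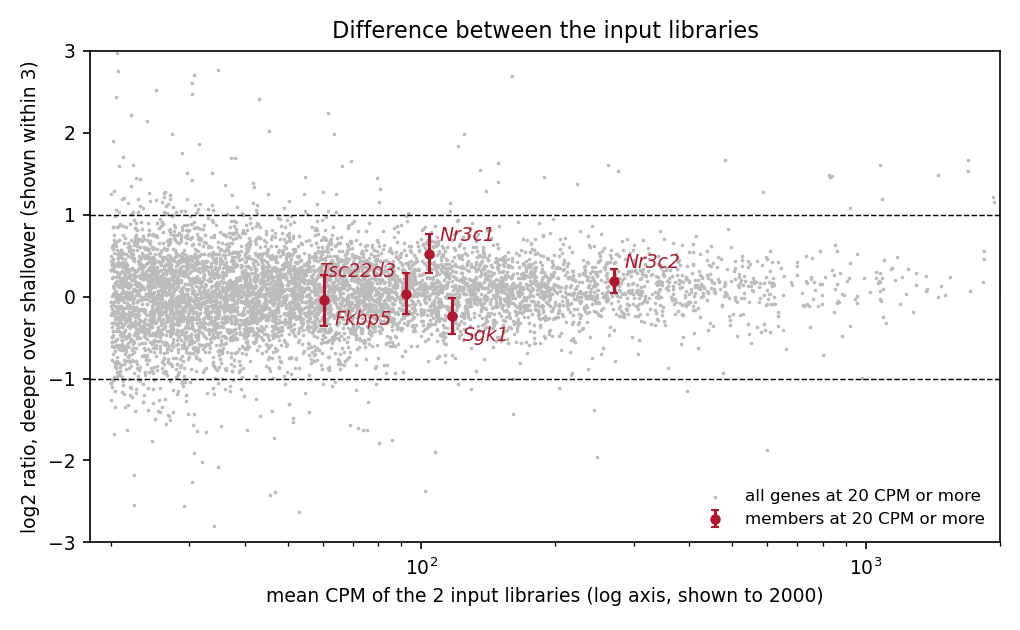
Log2 ratio of deeper over shallower library against mean CPM for 6915 genes at 20 CPM or more (grey) and the 5 described genes that reach it (red, with exact 95% binomial intervals). Dashed lines mark a 2-fold difference. The 5 lie between -0.24 and 0.53, and 44 grey genes fall outside the axes.

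The coregulators that ligand-bound receptors recruit were all present. Each of the 15 genes of the list reported here reached 20 CPM, and so also 5 CPM, which 47.8% of nuclear protein-coding genes reached. The highest per length were the acetyltransferase genes Crebbp (111 ± 6.26 FPKM) and Ep300 (80.0 ± 12.6), the corepressor genes Trim28 (92.6 ± 15.9) and Ncor1 (69.8 ± 5.02), and the coactivator genes Ncoa1 (70.3 ± 3.93) and Ncoa2 (50.9 ± 9.91). Over the 10 pathway lists, 120 named genes other than the 7 were measured. Of the 61 with a mean of at least 20 CPM, 2 (3.28%) were at least 2-fold apart between the libraries, near the 3.93% of all genes. These were the coregulator gene Ube3a, with 59 and 335 counts, and the prohormone convertase gene Pcsk1, with 40 and 98.

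**Figure D4:**
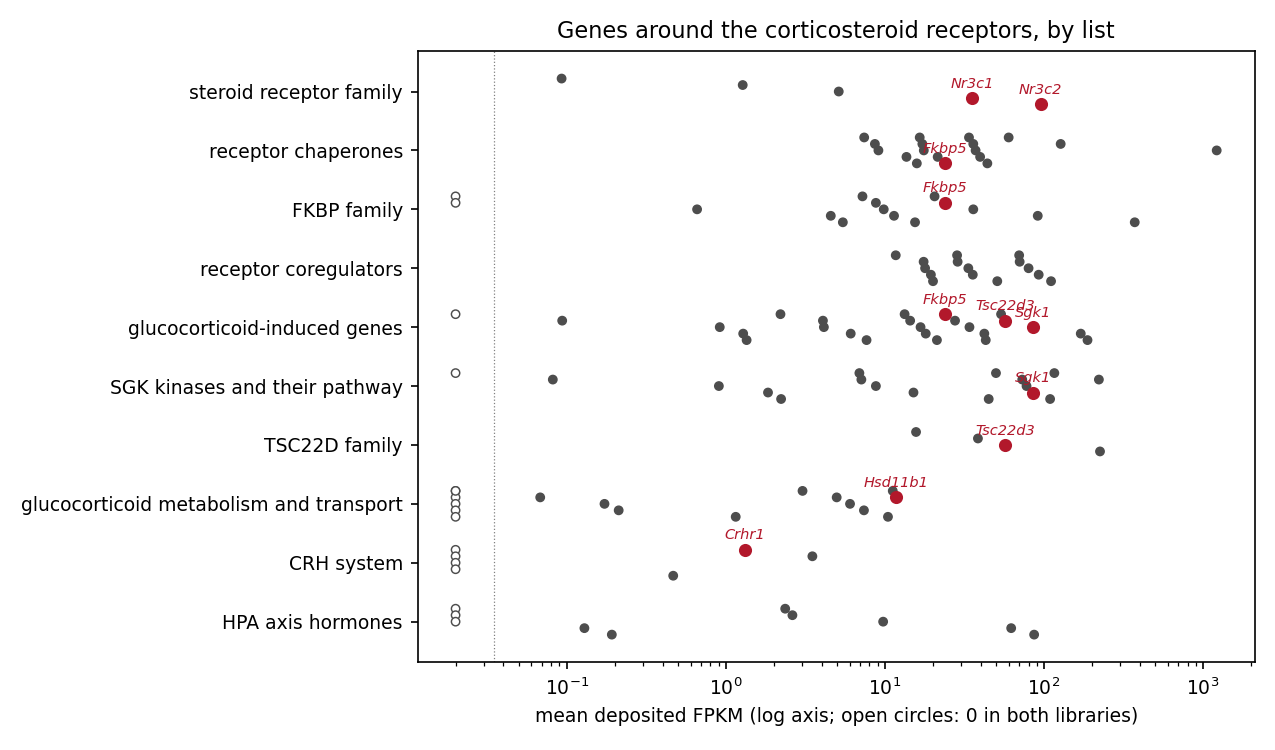
Mean deposited FPKM of every reported gene in the 10 pathway lists (log axis, open circles for genes at 0 in both libraries), with the 7 described genes in red. Chaperone and coregulator genes have no open circle, and 4 of the 7 CRH system genes do.

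The motif GGACT, the common core of m6A sites, occurred 1 to 5 times in the longest transcript of each on the transcript strand, or 0.506 per kilobase for Hsd11b1 to 1.29 for Sgk1. For coding genes at 5 CPM or more the quartiles were 0.654 and 1.44 and the median 1.02, so Hsd11b1 lay below the lower quartile and the other 6 between the quartiles. The transcript GC content ran from 42.2% for Nr3c1 to 58.2% for Crhr1, around a median of 49.7% for those coding genes. The presence of the motif does not show that a site is modified or bound.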

How the data were processed

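The authors deposited read counts and FPKM values per Ensembl gene for 2 input libraries, with no other column in the tables. Per the submitters' processing notes, BWA 0.7.12, MACS2 2.1.0, HOMER and GRCm38 are named with no role, while read counter, strand and multi-mapping settings were not given in the sources used here. The deposited FPKM is the count over the library total and over 1 length per gene, equal in both libraries for 100% of 18734 genes (tolerance 0.01 bases) and within 1 base of the mean GENCODE M21 transcript length for 89.7%. The column numbers do not both match replicate numbers, so libraries are named by depth. Over 12504 genes with at least 10 counts in each, a chi-square of 11.6 per degree of freedom showed that they differ by more than counting error.

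GENCODE M21 (GRCm38) named 52489 of 52636 IDs, including all genes described. CPM used library totals, ratios a pseudocount of 0.5 CPM and TMM factors of 1.05 and 0.951 (edgeR 4.0.16, genes at 5 CPM or more). The ratio formula was tested in a separate implementation, on counts simulated with counting error only. The 2 libraries differed by more than that, so the test does not cover their spread. Sequence sharing used transcript 31-mers, 1 in 8 positions, either strand. The GC trend was the median ratio of the 301 coding genes nearest in GC content. Promoter windows are from RefSeq.

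The genes and the pathway lists were chosen with earlier results of these data known. Genes open to naming are the 7, all genes of lists of up to 8, and of longer lists the 6 highest by FPKM, those at 0 and those 2-fold apart. Hsd11b2, Abcb1a, Sgk2, Sgk3, Scnn1a, Scnn1b, Fibcd1 and Spink8 were added after their values were seen. Ctgf matched no name used here, and some listed genes are not reported here.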

Additional observations from a re-analysis of the deposited data

How the results depend on the processing

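No paired analysis was possible because 1 group has values and its columns carry no shared replicate numbers. Of 123 alternative values, 92 were classed as the same and 31 as moved, and none reversed a direction that was called. For levels and ratios of the 7 genes, the same means within the spread or interval of the result. Counts of genes and medians of lists carry no such spread or interval here, and those classed as moved are given below. Divided by the longest transcript, levels per length were 45.9 for Nr3c2, 37.8 for Sgk1, 32.2 for Tsc22d3, 16.1 for Nr3c1, 15.7 for Fkbp5 and 6.95 for Hsd11b1, and by the union of exons 41.9, 23.9, 21.3, 13.5, 6.38 and 3.23 in the same order. Crhr1 has 1 transcript and did not change. With nuclear protein-coding counts as the denominator, CPM rose to 369 for Nr3c2, 158 for Sgk1, 126 for Tsc22d3, 142 for Nr3c1, 81.8 for Fkbp5, 18.7 for Hsd11b1 and 4.41 for Crhr1. Of 35 alternative ratios of the 7 genes, 2 left their interval: Nr3c1 at 0.24 with the GC trend taken out and Nr3c2 at 0.048 with library totals alone. Alternatives for the list medians (0.53 for the 3 steroid receptor genes at 5 CPM or more, and -0.20) were chosen after seeing the data. With the GC trend taken out they were 0.24 for the steroid receptors and -0.078 for the glucocorticoid-induced genes, and with library totals alone 0.38 and -0.35. At a minimum of 1 CPM, 2 genes of the CRH system counted as present, and at 20 CPM 0, with 1 gene of glucocorticoid metabolism and 5 FKBP genes. The number of genes at least 2-fold apart was 1164 at a minimum of 5 CPM and 88 at 50 CPM. Leaving out a library gives the level of the other, printed beside each gene. A mean of 2 values always lies within their SD of both. These alternatives could therefore only fall among the 92, and say nothing about stability. Depth limits Crhr1 and Hsd11b1 most.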

Other observations

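The products of Hsd11b1 and H6pd work together in the endoplasmic reticulum. Hsd11b1 had 32 and 50 counts and H6pd 54 and 34 in the shallower and deeper library, and of their ratios between libraries that of H6pd (-0.87, -1.57 to -0.26) had an interval off 0. Per length, Hsd11b1 exceeded H6pd by a log2 of 0.40 (95% binomial interval -0.28 to 1.05) in the shallower and 1.71 (1.05 to 2.38) in the deeper library. With the union of exons as the length these were -0.45 (-1.13 to 0.20) and 0.86 (0.20 to 1.53). Under both lengths Hsd11b1 was thus the higher one in the deeper library, while the intervals of the shallower library included 0. By counts alone the log2 ratios were -0.75 (-1.43 to -0.10) in the shallower and 0.56 (-0.10 to 1.23) in the deeper library.

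Ube3a had a log2 ratio of 2.24 (95% interval 1.87 to 2.70) between the libraries. It shares 28.6% of its transcript 31-mers with other genes, and the part of that sharing in the ratio was not tested.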
